A study of Homo sapiens with 16 samples.

Results

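The adherens junction, the belt of contacts by which neighbouring epithelial cells hold each other, was followed through 10 genes: the classical cadherins CDH1, CDH2 and CDH3, the catenins CTNNA1, CTNNB1 and CTNND1, the scaffold AFDN, and the nectins NECTIN1, NECTIN2 and NECTIN4. They were chosen by symbol from the 78894 genes of the count table, and 9 of the 10 passed the filter on low counts that left 16790 genes for testing. The exception was CDH2.

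RNA was sequenced from MCF10DCIS.com cells, an established human breast line of the MCF10A series that forms lesions like ductal carcinoma in situ, after growth on matrigel in medium with EGF. All groups came from 1 PCSK5-/- clone, made with Cas9 and recovered in medium with GDF11, and each received a tetracycline-regulated, V5-tagged PCSK5 allele as 1 polyclonal line. PCSK5 is a proprotein convertase that matures secreted precursors, among them that of GDF11, a TGF-beta-like ligand whose receptors activate SMAD2 and SMAD3. The groups, each of 4 wells, were the wildtype allele (WT), M452I, T288P, and T288P with 250 ng/ml mature GDF11 throughout (T288P+GDF11). Every well, including the WT controls, had 1 µg/ml doxycycline starting at day 4, and RNA was taken at day 8. An allele and its line cannot be told apart, and wells of 1 line are not stated to be separate derivations, so p-values measure the spread between wells.

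Cadherins bind their like on the next cell through calcium-dependent extracellular domains. Inside the cell, beta-catenin (CTNNB1) holds the cadherin tail and alpha-catenin (CTNNA1), which binds actin, while p120-catenin (CTNND1) binds nearer the membrane and keeps the cadherin at the surface. Nectins bind each other without calcium and connect to actin through afadin (AFDN). In breast, CDH1 (E-cadherin) is typical of luminal and CDH3 (P-cadherin) of basal and myoepithelial cells, and CDH2 (N-cadherin) is typical of mesenchymal cells. Ligands that activate SMAD2 and SMAD3 are known for lowering CDH1 in epithelium, through factors of the SNAI and ZEB families that bind E-boxes in its promoter.

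One annotated promoter window is printed because its gene was lower with GDF11 and because it is rich in the letters those factors recognise. Since it was picked on both traits, the share of all windows given beside it is no test of a link. The RefSeq promoter table (GRCh38.p14) held 6 of the 10 genes: CDH2, CTNNA1, CTNNB1, AFDN, NECTIN2 and NECTIN4. The 250 bases before each listed start were searched for CACCTG on both strands (read as CAGGTG on the other), a motif with a match in 17.5% of the 35116 windows of that length in the table. AFDN had 4 matches, which began 150, 126, 114 and 16 bases before the start, and 0.122% of all windows had 4 or more. NECTIN4 had 1 match, 38 bases before its start. The windows of the other 4 genes had 0, among them CTNNA1 and NECTIN2, which were also lower with GDF11. Exons annotated in GENCODE 29 cover 250 bases of the CTNNB1 window, 122 of that of NECTIN2 and 41 of that of NECTIN4. They cover 142 to 250 bases of the CTNNA1 windows and 250 or 0 of those of CDH2. The NECTIN4 match lies in such exon bases. A SMAD element, CAGAC or GTCTG on the other strand, was searched in the same way and has a match in 38% of all windows. The AFDN, NECTIN2 and NECTIN4 windows had 0, that of CTNNB1 had 2, and CDH2 and CTNNA1, with more than 1 listed start, had up to 2 and up to 1 in a window. The AFDN window, chr6:167827385-167827634 on the plus strand, follows 5′ to 3′ with the matches in capitals. It lies in an intron of the longer AFDN transcripts of GENCODE 29.
AFDN: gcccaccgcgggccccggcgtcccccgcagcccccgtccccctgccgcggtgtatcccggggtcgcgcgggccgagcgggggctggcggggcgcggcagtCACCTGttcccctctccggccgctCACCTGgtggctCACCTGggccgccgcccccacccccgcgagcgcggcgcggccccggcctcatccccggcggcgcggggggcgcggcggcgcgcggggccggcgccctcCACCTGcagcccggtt
No binding and no promoter activity was measured here, and a match is a description of these letters only.

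Libraries held 28.45 to 50.76 M counts. Levels are counts per M counts of a library (CPM) scaled by TMM factors, as mean ± SD of 4 wells unless single wells are given, and a gene was called at a Benjamini-Hochberg adjusted p under 0.05 in edgeR's quasi-likelihood test over all 16790 genes. PCSK5 itself, the targeted gene, ranged from 25.3 to 66.8 CPM over the 16 wells with group means of 37.7 to 45.4, and its counts do not separate the added allele from the edited locus. M452I replicate 4 and T288P replicate 1 stood apart. On the first principal component (27.1% of the variance) the former had a score of 37.5 beside -44.7 to -32.9 for its group, and the latter -43 beside 2.1 to 8.8. T288P replicate 1 thus lay within the range of the other M452I wells. M452I replicate 4 lay above every other untreated well and below the T288P+GDF11 wells (44.1 to 63.6). The cause of either position was not tested. The counts of called genes below are given with all libraries and, in several places, also without these 2. The 2 were picked after the data were seen.

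Of the 9 genes tested, 4 were called in T288P+GDF11 against T288P, all lower: CDH1, CTNNA1, AFDN and NECTIN2. CDH3, CTNNB1, CTNND1, NECTIN1 and NECTIN4 were not called. Without the 2 outlying libraries the same 4 genes were called lower and NECTIN4 was called higher, where 2356 genes were called over the whole table. Among all genes tested in that comparison with all libraries, 12.9% were called in either direction and 7.88% were called lower. In T288P+GDF11 against WT 6 of 9 were lower, with CTNNB1 and CTNND1 in addition, where 28.9% of all genes were called and 15.1% were called lower. In T288P+GDF11 against M452I 5 of 9 were lower, the first 4 and CTNNB1, where 21.2% of all genes were called and 12.9% were called lower. Without the 2 outlying libraries NECTIN4 gained a call, lower than in WT (log2 -0.37, edgeR adjusted p = 0.00515). CTNND1 gained one there too, lower than in M452I (log2 -0.24, adjusted p = 0.0132). That fit called more genes over the whole table, 6249 against WT in place of 4846 and 6941 against M452I in place of 3558. All 4 wells with GDF11 lay below all 4 of the other group for 5 of 9 genes against T288P (11.8% of all genes), 7 of 9 against WT (17.4%) and 4 of 9 against M452I (9.97%). The T288P+GDF11 wells serve in all 3 comparisons, so these counts are not independent. The median log2 fold change of the 9 genes was -0.17 against T288P, where that of all tested genes was -0.01, and -0.37 against WT, where that of all genes was 0.02.

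**Figure D1:**
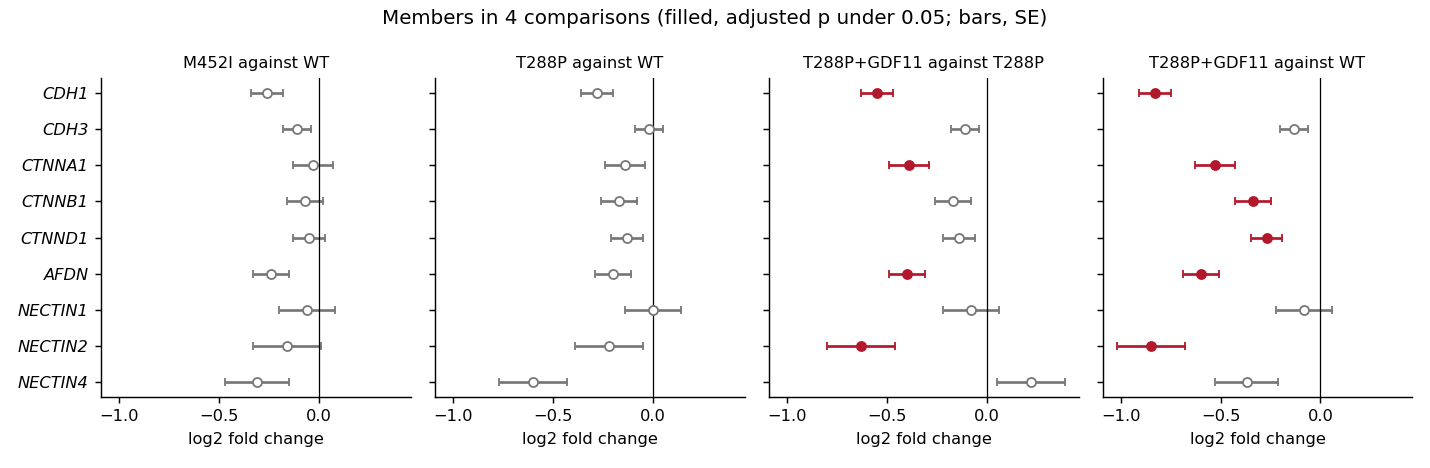
Log2 fold change (x axis) with its SE (bars) of the 9 tested genes in 4 comparisons; filled red points passed an adjusted p under 0.05 in edgeR. With GDF11, 4 genes were called lower against T288P and 6 against WT, and no gene was called between either mutant allele and WT.

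CDH1, the main cadherin of epithelial cells, lies on chromosome 16 at 68737225 to 68835548 (plus strand, GENCODE 29, GRCh38). It measured 420.3, 458, 383 and 390.2 CPM in the WT wells, 375, 354, 339 and 313 in M452I, and 353, 325, 349 and 336 in T288P. The T288P+GDF11 wells read 229, 218, 229.9 and 253, below every well of the other groups. CDH1 was 1.47-fold lower in T288P+GDF11 than in untreated T288P (log2 -0.55, SE 0.08, edgeR adjusted p = 0.000498) and 1.78-fold lower than in WT (log2 -0.83, SE 0.08, adjusted p = 4.24e-06). The order of group means was WT, M452I, T288P and T288P+GDF11, with M452I (345 ± 26.2) and T288P (341 ± 12.7) overlapping.

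CDH1 was also below every WT well in all M452I and all T288P wells, but was not called. The log2 fold change was -0.26 for M452I (SE 0.08, edgeR unadjusted p = 0.00589, adjusted p = 0.727) and -0.28 for T288P (SE 0.08, unadjusted p = 0.00371, adjusted p = 0.37). Without the 2 outlying libraries CDH1 was called lower in T288P than in WT (log2 -0.29, adjusted p = 0.0293) and not in M452I (log2 -0.21, adjusted p = 0.11). That reading left 2 of 9 genes called in T288P against WT in place of 0, and 698 genes called over the whole table in place of 7.

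CDH3, P-cadherin, is the gene next to CDH1, 14.6 kb upstream on the same strand. Its wells read 310.1, 291, 275 and 292 CPM in the WT wells, 271, 289, 275 and 249 for M452I, 291, 274, 303 and 285 for untreated T288P and 260.1, 263, 268 and 274 with GDF11. The groups lay close, and CDH3 was called in none of the 6 comparisons. The largest difference, T288P+GDF11 against WT, was -0.13 on the log2 scale (SE 0.07, edgeR adjusted p = 0.18), although those 2 groups did not overlap. The change of CDH1 against T288P was thus -0.55 where that of its neighbour was -0.11 (SE 0.07, adjusted p = 0.325).

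The balance of the cadherins shifted accordingly. The ratio of CDH1 to CDH3 CPM was 1.41 ± 0.11 for WT, 1.27 ± 0.07 for M452I, 1.18 ± 0.02 for T288P and 0.87 ± 0.04 for T288P+GDF11. The highest T288P+GDF11 well (0.92) lay below the lowest well of any other group (1.15, in T288P). Per kb of exon, CDH1 made up 58.7% ± 1.83 of the summed level of CDH1, CDH2 and CDH3 for WT, 56.2% ± 1.4 for M452I, 54.4% ± 0.51 for T288P and 46.8% ± 1.1 for T288P+GDF11. CDH3 therefore had the higher cadherin level in the GDF11 wells and CDH1 in all others, in CPM and per kb of annotated exon. The annotated exon lengths are 6.18 kb for CDH1 and 6.24 kb for CDH3.

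**Figure D2:**
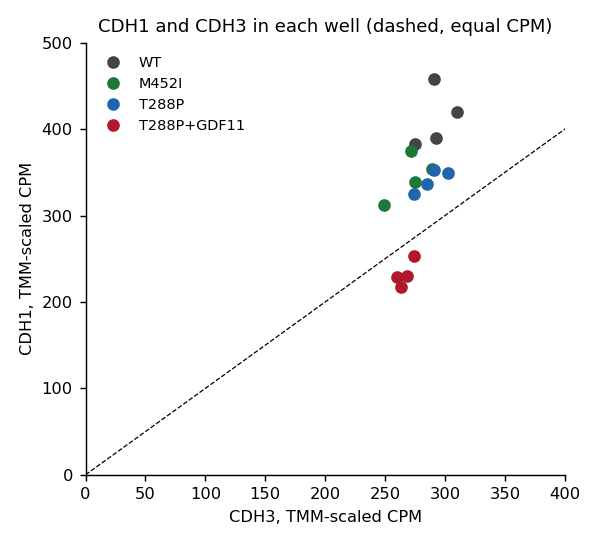
CDH1 (y axis) against CDH3 (x axis) in TMM-scaled CPM, 1 point per well, coloured by group; the dashed line marks equal CPM. The 4 T288P+GDF11 wells lie below the line (ratios up to 0.92) and the 12 other wells above it (ratios from 1.15).

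CDH2, N-cadherin, was barely detected. It had 52 counts over the 16 libraries, with 0 in 8 of them and at most 14 counts (0.42 CPM) in one. By group it had 11 counts over the WT wells, 2 over M452I, 19 over T288P and 20 over T288P+GDF11, each from 1 to 3 wells. A count of 0 allows up to 3 counts, or 0.065 to 0.106 CPM, in a library, counting error only. In every library about as many genes had 2 counts as 1 (1616 to 2026 and 1745 to 2095 genes), so both mates of 1 fragment may each have added a count. The number of fragments may then be smaller than these counts, and the limit that a 0 sets is uncertain to that extent. No difference between groups was detectable at this depth. An antisense gene that shares 2.75% of its exon bases had 35 counts, and without a stated strand these few reads cannot all be assigned to CDH2.

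CTNNA1, the actin-binding alpha-catenin, had the highest level of the 10 genes per kb of annotated exon. It read 769, 808, 746 and 797 CPM in the WT wells, 836, 841, 790.3 and 597 for M452I, 781, 679, 714 and 661 for untreated T288P and 520.0, 523, 555 and 563.5 with GDF11. The T288P+GDF11 wells lay below all others, and M452I replicate 4 was the lowest of the untreated wells. The log2 fold change was -0.39 against T288P (SE 0.1, edgeR adjusted p = 0.0162) and -0.53 against WT (SE 0.1, adjusted p = 0.000868). Against T288P the call was lost without T288P replicate 1 (log2 -0.33, adjusted p = 0.0721) and without T288P+GDF11 replicate 1 (adjusted p = 0.0554), and it held without both outlying libraries (log2 -0.34, adjusted p = 0.000754).

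CTNNB1, beta-catenin, which also acts as the nuclear coactivator of Wnt signalling, changed less. It averaged 266 ± 14.1 CPM for WT, 254 ± 34.7 for M452I, 238 ± 16.1 for T288P and 211 ± 5.74 for T288P+GDF11. Against T288P it was not called (log2 -0.17, SE 0.09, edgeR adjusted p = 0.238), though its 204 to 217 CPM lay below the lowest T288P well at 221. Against WT it was lower (log2 -0.34, SE 0.09, adjusted p = 0.0109). Against M452I it was just called (log2 -0.26, adjusted p = 0.049), with M452I replicate 4 at 203 CPM inside the range of the GDF11 wells, and this call was lost in 11 of 14 alternative fits (adjusted p up to 0.212).

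CTNND1, p120-catenin, averaged 345 ± 19.6 CPM for WT, 333 ± 9.16 for M452I, 314 ± 7.78 for T288P and 286 ± 28.9 for T288P+GDF11. T288P+GDF11 replicate 2, at 244 CPM, was the lowest well, and the other 3 of its group read 288.1 to 311. With all libraries edgeR called it only against WT (log2 -0.27, SE 0.08, adjusted p = 0.0166). That call was lost without the low-count filter (adjusted p = 0.0832), without WT replicate 1, 2 or 4 (adjusted p = 0.0561, 0.0777 and 0.0517), and without T288P+GDF11 replicate 2 (adjusted p = 0.0748). Against M452I all GDF11 wells lay lower, short of a call (log2 -0.22, edgeR adjusted p = 0.055). DESeq2 called it there (adjusted p = 0.0347), as did edgeR without M452I replicate 4 (adjusted p = 0.0191) and without both outlying libraries (adjusted p = 0.0132).

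Set against CDH1, all 3 catenin transcripts were relatively more abundant with GDF11. The ratio of CTNNB1 to CDH1 was 0.65 ± 0.03 for WT, 0.73 ± 0.06 for M452I, 0.7 ± 0.04 for T288P and 0.91 ± 0.05 for T288P+GDF11, where the lowest well (0.85) exceeded the highest of the others (0.77). The ratio of CTNND1 to CDH1 was 0.84 ± 0.04 in WT and 1.23 ± 0.1 in T288P+GDF11, again without overlap. For CTNNA1 the ratio was 1.9 ± 0.12 in WT and 2.33 ± 0.09 in T288P+GDF11, and the latter range, 2.23 to 2.41, overlapped that of M452I, 1.91 to 2.38. These ratios are descriptions of transcript levels and were not tested.

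**Figure D3:**
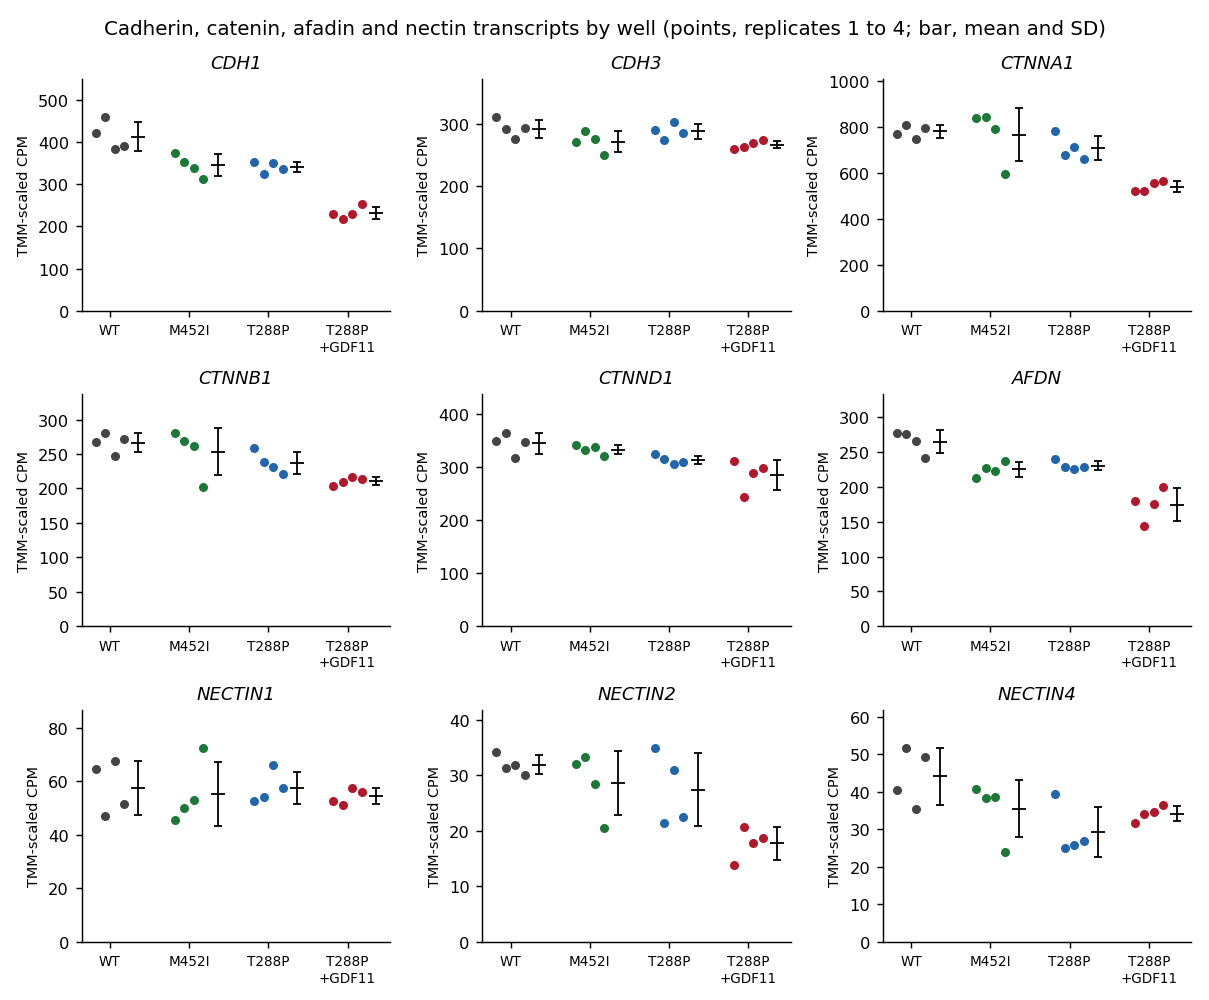
TMM-scaled CPM (y axis, from 0) of the 9 tested genes in each of the 16 wells, 4 per group, with the group mean and SD as a bar beside the points. CDH1, CTNNA1 and AFDN were lowest in all 4 T288P+GDF11 wells (218 to 253, 520.0 to 563.5 and 143 to 200.0 CPM), while CDH3 and NECTIN1 lay at like levels in every group.

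AFDN, the scaffold between nectins and actin, read 277, 275, 265 and 241 CPM in the WT wells, 212, 228, 223 and 237 for M452I, 240.4, 228, 225 and 229 for untreated T288P and 179, 143, 176 and 200.0 with GDF11. All T288P+GDF11 wells were below all others. The log2 fold change was -0.4 against T288P (SE 0.09, edgeR adjusted p = 0.00734), -0.6 against WT (adjusted p = 0.000128) and -0.37 against M452I (adjusted p = 0.00902). In a fit of T288P+GDF11 and M452I alone the last call was lost (adjusted p = 0.0565). Like CDH1, AFDN was below every WT well in all wells of both mutant alleles without being called (log2 -0.24 for M452I, adjusted p = 0.752, and -0.2 for T288P, adjusted p = 0.567). CDH1 and AFDN were the 2 of 9 genes whose groups did not overlap in each of those comparisons, where 2.31% (M452I) and 2.94% (T288P) of all genes lay wholly below WT. With edgeR 0 of 9 genes were called in M452I against WT (0.0238% of all genes called) and 0 of 9 in T288P against WT (0.0417%). At an unadjusted p under 0.05 there were 2 of 9 for M452I (6.3% of all genes) and 3 of 9 for T288P (8.49%), the third being NECTIN4, and DESeq2 called 0 in both.

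NECTIN2, a nectin also bound by immune receptors, read 34.2, 31.4, 31.9 and 30.1 CPM in the WT wells, 32.0, 33.3, 28.4 and 20.4 for M452I, 34.8, 21.3, 30.9 and 22.5 for untreated T288P and 13.8, 20.7, 17.7 and 18.6 with GDF11. It spread more within M452I and T288P than the other called genes did. It was 1.55-fold lower than in T288P (log2 -0.63, SE 0.17, edgeR adjusted p = 0.0201) and 1.8-fold lower than in WT (log2 -0.85, SE 0.17, adjusted p = 0.00116). Against T288P the call was lost without T288P replicate 1 (log2 -0.47, adjusted p = 0.0987), T288P replicate 3 (adjusted p = 0.0607), T288P+GDF11 replicate 1 (adjusted p = 0.0755) or T288P+GDF11 replicate 3 (adjusted p = 0.0543). It held without both outlying libraries (adjusted p = 0.0166).

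NECTIN4, a nectin of epithelial tumours, did not follow NECTIN2. It read 40.5, 51.6, 35.3 and 49.3 CPM in the WT wells, 40.8, 38.5, 38.7 and 24.1 for M452I, 39.3, 25.0, 25.7 and 27.0 for untreated T288P and 31.7, 34.0, 34.5 and 36.4 with GDF11. The single low well of M452I and the single high well of T288P are the 2 outlying libraries. The former (24.1) lay just below the other T288P wells (25.0 to 27.0). The latter (39.3) lay within the range of the other M452I wells (38.5 to 40.8). The allele comparisons of NECTIN4 thus rest on how these 2 wells are treated. With all libraries NECTIN4 was called in no comparison (T288P against WT log2 -0.6, SE 0.17, edgeR adjusted p = 0.337). Without the 2 libraries it was lower in T288P than in WT (log2 -0.77, adjusted p = 0.000549), lower in T288P than in M452I (log2 of M452I against T288P 0.6, adjusted p = 0.00246), and higher in T288P+GDF11 than in T288P (log2 0.4, adjusted p = 0.0164). The libraries were left out after the data were seen, and dropping the extreme NECTIN4 well of a group narrows its spread. These adjusted p-values therefore cannot decide whether NECTIN4 differed. The ratio of NECTIN4 to NECTIN2 was 1.39 ± 0.29 in WT, 1.08 ± 0.17 in T288P and 1.96 ± 0.27 in T288P+GDF11.

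NECTIN1, the other nectin tested, averaged 57.7 ± 10.1, 55.3 ± 11.8, 57.6 ± 6.02 and 54.4 ± 2.93 CPM in WT, M452I, T288P and T288P+GDF11. The groups overlapped throughout, and it was called in no comparison. Its difference between T288P+GDF11 and T288P was -0.08 on the log2 scale (SE 0.14, edgeR adjusted p = 0.728).

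Between the mutant alleles, 0 of 9 genes were called by edgeR or by DESeq2 with all libraries, and edgeR called 0.00596% of all genes. At an unadjusted p under 0.05 there were 0 of 9, beside 2.18% of all genes. The median log2 fold change of M452I against T288P was 0.06 for the 9 genes and 0.01 for all. Without the 2 outlying libraries 3 of 9 were called, NECTIN4, CTNNB1 and CTNNA1, all higher in M452I, and 2420 genes over the whole table in place of 1.

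Per kb of exon in WT, the level was highest for CTNNA1 (88.3 CPM per kb), followed by CDH1 (66.8), CDH3 (46.8), CTNND1 (39.2), CTNNB1 (22.3), AFDN (19.3), NECTIN4 (12.6), NECTIN2 (8.51), NECTIN1 (7.49) and CDH2 (0.014). Only NECTIN2 and NECTIN1 overlapped among neighbours in this order (8.02 to 9.13 and 6.09 to 8.80 CPM per kb). With GDF11 CDH3 (42.7) stood above CDH1 (37.6), whose wells, 35.2 to 41.0, did not reach the lowest CDH3 well at 41.7. NECTIN1 (7.07) stood above NECTIN2 (4.72), and the other genes kept their order. The length used merges all annotated exons of a gene, from 3.5 kb for NECTIN4 to 11.93 for CTNNB1 and 13.72 for AFDN. Which transcripts were expressed was not measured, so the order of the genes could differ with their true lengths.

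The other genes of the junction were read from lists. Their counts stand beside 12.9% of all genes called against T288P, 7.88% called lower against T288P and 15.1% called lower against WT. Counts without the 2 outlying libraries stand beside 2356 genes called against T288P and 6249 against WT over the whole table. Of 3 tested classical and type II cadherins besides these, CDH19 rose with GDF11 and the others, CDH24 and CDH11, did not pass. CDH19, a cadherin best known from Schwann cells, read 80.3, 55.1, 71.7 and 68.3 CPM with GDF11 and 11.2, 19.0, 18.9 and 19.4 in T288P (log2 2.0, SE 0.33, edgeR adjusted p = 0.00194). M452I replicate 4, at 28.7 CPM, was the highest of the untreated wells. Of 15 tested atypical and seven-pass cadherins, 0 were called by edgeR or DESeq2 against T288P and 2 had an unadjusted p under 0.05 in edgeR. FAT1, a giant cadherin that binds actin regulators, averaged 134 ± 23.8 CPM in T288P and 106 ± 30.0 with GDF11 (adjusted p = 0.332).

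Among 9 tested relatives and tail partners of the catenins, 3 fell against T288P and 0 rose, or 4 and 0 without the 2 outlying libraries. CTNNAL1, an alpha-catenin relative, fell from 54.2 ± 5.89 to 37.4 ± 4.62 CPM (edgeR adjusted p = 0.00907). CBLL1, the ubiquitin ligase also called Hakai that targets E-cadherin, fell from 34.8 ± 4.32 to 26.3 ± 0.48 CPM (adjusted p = 0.0125), and the call was lost without T288P replicate 1 (adjusted p = 0.0655). NUMB, an endocytic adaptor, fell from 92.8 ± 6.16 to 77.1 ± 5.33 CPM (adjusted p = 0.0337), and its call was lost when any 1 of T288P replicates 1 to 3 or T288P+GDF11 replicates 1 to 3 was left out (adjusted p up to 0.132). JUP, plakoglobin, which can replace beta-catenin on the cadherin tail, was lower against WT (438 ± 12.7 to 287 ± 19.9 CPM, adjusted p = 0.00387) and against M452I, and was not called against T288P (380.0 ± 71.6 CPM, log2 -0.4, adjusted p = 0.0667). Without the 2 outlying libraries JUP was called lower against T288P (log2 -0.29, adjusted p = 0.0262).

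Of 7 tested nectin relatives and partners, 1 fell and 2 rose, or 1 and 1 without the 2 outlying libraries. LMO7, which links afadin to alpha-actinin, had the strongest call of the list. It read 147, 142, 166 and 155 CPM in T288P and 80.0, 72.8, 81.2 and 91.1 with GDF11 (log2 -0.91, SE 0.08, edgeR adjusted p = 3.23e-06), and the lowest untreated well read 142. SORBS2, of the family of the afadin partner ponsin, rose from 9.27 ± 1.42 to 16.6 ± 1.96 CPM (adjusted p = 0.00693). SSX2IP, an afadin-binding protein, rose from 13.1 ± 1.06 to 16.9 ± 1.79 CPM (adjusted p = 0.0451), a call lost when any 1 of replicates 1, 3 and 4 of either group was left out (adjusted p up to 0.136) and without both outlying libraries (adjusted p = 0.0745).

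Among 25 tested linkers of the junction to actin, 7 fell against T288P and 0 rose, and 9 fell against WT. Without the 2 outlying libraries 8 fell against T288P and 10 against WT, and 0 rose. VCL, vinculin, which binds alpha-catenin under tension, read 278, 263, 279 and 262 CPM in T288P and 203, 154, 201 and 196 with GDF11 (log2 -0.52, SE 0.09, edgeR adjusted p = 0.000995). DIAPH1, a formin that builds actin filaments, fell from 375 ± 29.9 to 266 ± 18.1 CPM (adjusted p = 0.00184). ACTN4, an alpha-actinin, fell from 580 ± 37.8 to 448 ± 22.0 CPM (adjusted p = 0.0053). ENAH, an actin-elongating protein, was among those lower in each GDF11 comparison, at 165 ± 9.94 CPM with GDF11, 212 ± 23.0 in T288P and 250 ± 5.84 in WT.

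Of 13 tested genes of cadherin shedding and turnover, 2 fell and 1 rose. PTPRF, a receptor phosphatase found with cadherins, fell from 406 ± 25.9 to 273 ± 31.7 CPM (edgeR adjusted p = 0.000825). CSNK2A1, a catalytic subunit of casein kinase 2, fell from 323 ± 36.2 to 240 ± 7.51 CPM (adjusted p = 0.0236), and MMP7, a protease that can cleave E-cadherin, rose from 1.53 ± 0.395 to 3.27 ± 0.143 CPM (adjusted p = 0.0203). The CSNK2A1 and MMP7 calls were lost without T288P replicate 1 (adjusted p = 0.111 and 0.0721) and without T288P+GDF11 replicate 1 (adjusted p = 0.0645 and 0.0504), and that of CSNK2A1 also without T288P+GDF11 replicate 2 or 3 (adjusted p = 0.0542 and 0.0703).

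Of 24 tested transcriptional regulators of CDH1, both activators and repressors, 7 fell and 1 rose, or 6 and 1 without the 2 outlying libraries. Those that fell include factors of the epithelial state. ELF3, an epithelial ETS factor, fell from 67.7, 38.5, 49.8 and 43.3 to 14.2, 18.7, 15.8 and 19.2 CPM (log2 -1.55, SE 0.2, edgeR adjusted p = 0.000163). OVOL1, which represses mesenchymal genes, fell from 15.4 ± 4.32 to 6.47 ± 1.72 CPM (adjusted p = 0.00123), and FOXA1, a pioneer factor of luminal cells, from 10.4 ± 1.0 to 6.26 ± 0.646 CPM (adjusted p = 0.000873). Repressors of CDH1 were named after their values were seen. SNAI2, the most abundant of the SNAI and ZEB factors, was not called, at 131 ± 18.3 CPM in T288P and 152 ± 18.1 with GDF11 (log2 0.21, SE 0.13, adjusted p = 0.305), nor was ZEB2 (adjusted p = 0.567). The corepressor CTBP2 was not called either (189 ± 20.8 and 159 ± 9.17 CPM, adjusted p = 0.0712). TCF3, an E-box-binding factor, fell from 52.3 ± 5.25 to 42.4 ± 4.27 CPM (adjusted p = 0.0399), a call lost without the 2 outlying libraries. ZEB1, at a low level, rose from 2.63 ± 0.135 to 4.14 ± 0.711 CPM (adjusted p = 0.0266) and SNAI1 fell from 4.53 ± 1.41 to 2.35 ± 0.357 CPM (adjusted p = 0.0298). The ZEB1 call was lost without T288P replicate 1 or 4 or T288P+GDF11 replicate 4 (adjusted p = 0.0623, 0.0538 and 0.0854) and without the low-count filter (adjusted p = 0.0851). That of SNAI1 was lost without T288P replicate 1 (adjusted p = 0.139) and without T288P+GDF11 replicate 1, 2 or 3 (adjusted p = 0.0696, 0.0809 and 0.0819).

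**Figure D4:**
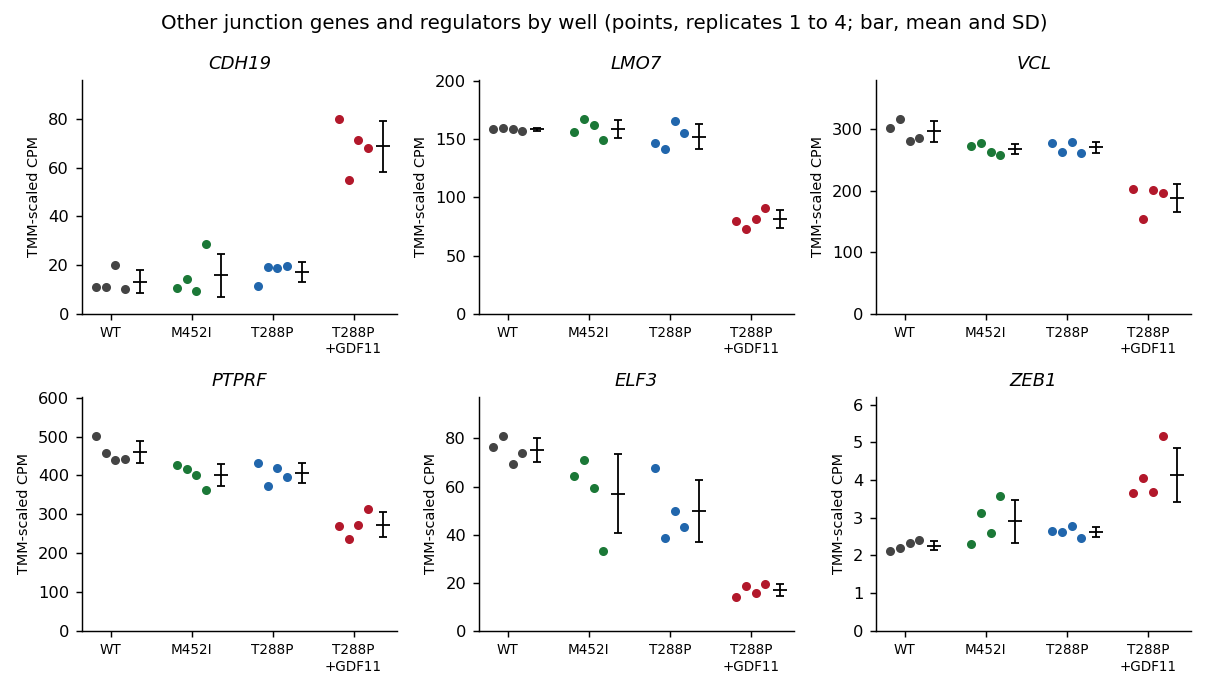
TMM-scaled CPM (y axis, from 0) of CDH19, LMO7, VCL, PTPRF, ELF3 and ZEB1 in each of the 16 wells, with group mean and SD as a bar. LMO7 lay at 72.8 to 91.1 CPM in the T288P+GDF11 wells where the lowest of the other wells read 142, and CDH19 at 55.1 to 80.3 where the highest of the others read 28.7.

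Of 18 tested genes of the beta-catenin destruction complex and its nuclear partners, 7 fell against T288P and 0 rose. They held parts of both arms: the kinase GSK3B, which marks beta-catenin for degradation, fell from 204 ± 11.0 to 158 ± 12.2 CPM (edgeR adjusted p = 0.00531), the ubiquitin ligase subunit FBXW11 from 139 ± 3.19 to 105 ± 3.22 CPM (adjusted p = 0.00199), and the coactivator BCL9L from 105 ± 11.8 to 77.1 ± 2.99 CPM (adjusted p = 0.00173). Of the 114 tested genes of the 8 lists described so far, edgeR called 0 in M452I against WT, in T288P against WT and between the alleles. At an unadjusted p under 0.05 there were 9, 12 and 0, beside 6.3%, 8.49% and 2.18% of all genes, and DESeq2 called 1, 2 and 0. Without the 2 outlying libraries edgeR called 0 higher and 5 lower in M452I against WT, beside 640 genes over the whole table. It called 2 higher and 6 lower in T288P against WT, beside 698, and 7 higher and 6 lower in M452I against T288P, beside 2420. ELF3, BCL9L and JUP were among those lower in T288P than in WT there (log2 -0.78, -0.48 and -0.32; adjusted p = 0.000534, 0.000549 and 0.034). For T288P+GDF11 against T288P the 8 lists together gave 32 calls with all libraries, beside 12.9% of all genes. Without the 2 outlying libraries they gave 4 higher and 28 lower, beside 2356 genes over the whole table.

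The GDF11 treatment was checked on 15 targets of SMAD2 and SMAD3. Of these 5 rose, 1 fell and 9 were not called against T288P, beside 12.9% of all genes called. ITGB6, a chain of an integrin that frees TGF-beta from its latent complex, rose from 49.3 ± 7.63 to 150 ± 22.9 CPM (edgeR adjusted p = 5.19e-06), and FN1, fibronectin, from 69.4 ± 18.7 to 293 ± 32.4 CPM (adjusted p = 7.92e-05). PMEPA1, a feedback inhibitor of SMAD signalling, rose from 79.2 ± 11.8 to 198 ± 6.44 CPM (adjusted p = 2.19e-05). TGFBI, a matrix protein, was the only gene of all lists that edgeR called in an allele comparison with all libraries, higher than WT in M452I (119 ± 13.7 against 75.8 ± 5.26 CPM, adjusted p = 0.00505) and in T288P (110 ± 9.46 CPM, adjusted p = 0.0386). Both calls held without the 2 outlying libraries (adjusted p = 0.00619 and 0.00041), where ITGB6 was also called lower in M452I than in WT (log2 -0.35, adjusted p = 0.0489), TGIF1 lower in T288P than in WT (log2 -0.35, adjusted p = 0.0169) and higher in M452I than in T288P, and LTBP2 and PMEPA1 lower in M452I than in T288P.

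Markers of the labelled cell type were present, and their sum, most of it KRT5 and KRT17, was lower with GDF11. The 8 basal and luminal epithelial markers summed to 6677 to 6945 CPM in WT, 5665 to 8293 in M452I, 5625 to 7870 in T288P and 3766 to 4997 in T288P+GDF11, with KRT5, KRT17 and KRT18 called lower against T288P, 3 of 8. TP63, a basal transcription factor, averaged 18.9 ± 4.7 CPM for WT, 24.0 ± 15.7 for M452I, 25.7 ± 5.45 for T288P and 30.5 ± 2.11 for T288P+GDF11 and was not called with GDF11 (adjusted p = 0.65 against T288P and 0.117 against WT, whose wells all lay lower). Without the 2 outlying libraries KRT8 was also called lower in T288P+GDF11 than in T288P (log2 -0.41, edgeR adjusted p = 0.0167). In T288P against WT that fit called TP63 (log2 0.59, adjusted p = 0.0184) and KRT5 (log2 0.27) higher, and KRT8 (log2 -0.78) and KRT18 (log2 -0.33) lower. In M452I against T288P it called KRT8 (log2 0.83) and KRT18 (log2 0.50) higher and TP63 (log2 -0.81) lower. Over the whole table it called 698 and 2420 genes in these 2 comparisons. KRT19, a luminal keratin, averaged at most 0.302 CPM in any group. The 8 fibroblast markers summed to 3.95 to 5.74 CPM in untreated wells and 5.83 to 8.43 with GDF11, nearly all COL1A1, with COL3A1, LUM and THY1 at 0 throughout. The 5 endothelial markers summed to at most 1.37 CPM untreated and 2.12 to 3.53 with GDF11, where PECAM1 rose from 9 to 29 counts a library in T288P to 43 to 93, KDR rose from 0 to 7 counts to 23 to 34 (a call lost without the 2 outlying libraries), and CDH5 was at 0.046 CPM, and the 6 leukocyte markers to at most 1.26 CPM. In bulk RNA, fewer cells of a type and less RNA per cell cannot be told apart, and the part of cell composition in the lower CDH1 was not tested.

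Over all 16 libraries, genes whose log2 CPM followed CDH1 most closely included CYTH3 (Pearson r 0.98), B4GALT5 (0.979), KDM2A (0.978) and CELF1 (0.977), of 10433 genes with a symbol and a mean of at least 3 CPM. CELF1, an RNA-binding protein, averaged 239 CPM for WT, 212 for M452I, 197 for T288P and 132 for T288P+GDF11. Of the junction genes themselves AFDN was nearest (r 0.916, rank 321), then CTNNA1 (0.907), NECTIN2 (0.853), CTNND1 (0.838), CTNNB1 (0.826) and CDH3 (0.651). NECTIN4 (0.398) and NECTIN1 (-0.013) were farthest. The points share groups and libraries, so these values describe the 16 libraries and carry no p.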

How the data were processed

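Raw counts per gene, whole numbers that the authors deposited without normalization, were used for 16 poly(A)-selected libraries. HISAT2, StringTie 2.2.1 and GRCh38 are named per the submitters' processing notes. How reads were counted, with which annotation and strand, is not given in the sources used here, so reads of a gene and its antisense partner cannot be told apart. Genes that share exon bases with the 9 tested junction genes had at most 132 counts over all libraries, against at least 15232 for each of the 9. Coordinates and exon lengths are those of GENCODE 29 on GRCh38. An exon length counts every base in any annotated exon of the gene, so it can exceed that of the transcripts expressed.

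In R 4.3.3, edgeR 4.0.16 (TMM, filterByExpr with minimum count 10, robust quasi-likelihood F test) was fitted on all 16 libraries without a covariate, and p-values were adjusted by Benjamini-Hochberg over the 16790 genes that passed. SE is the absolute log2 fold change over the square root of F. The script was tested on simulated data. Log2 CPM for likeness used a prior count of 2. Library totals were 28.45 to 50.76 M counts, so counting error is small for the 9 tested junction genes and larger for CDH2 and for low genes of the lists, such as MMP7 and the endothelial markers.

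Groups came from the sample labels. The 6 comparisons share groups. The junction genes and the 13 lists of 186 genes were chosen with earlier results of these data known. The rule for names took the 10 junction genes always, up to 3 called genes of each list with the smallest adjusted p in T288P+GDF11 against T288P and up to 3 in each other comparison, and the 5 genes most like CDH1. Not every gene the rule takes is reported here. JUP against T288P, ZEB1, ZEB2, SNAI1, SNAI2, TCF3, CTBP2, TGIF1, CDH24, CDH11, FAT1 and single markers were named after their values were seen. Alternatives were DESeq2 1.42.0, RLE normalization, no low-count filter, a fit of only the compared groups, a block for the replicate number, each library left out in turn and, chosen after seeing the data, both outlying libraries left out.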

Additional observations from a re-analysis of the deposited data

Results flagged for a closer look

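In 2 of the 36 groups of 4 wells checked (9 genes, 4 groups), 1 well lay far from the other 3, where chance alone flags about 1 in 20. Both concern NECTIN4. M452I replicate 4 read 24.1 CPM against 38.5 to 40.8 in the other M452I wells. T288P replicate 1 read 39.3 CPM against 25.0 to 27.0 in the other T288P wells. These are the libraries that also stood apart on the first principal component.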

How the results depend on the processing

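For the 9 tested junction genes, 756 refits of the 54 fold changes (6 comparisons, 14 alternatives each) kept the call or its absence in 721 cases, lost a call in 24 and gained one in 11. The sign changed in 33, in none of which either fit called the gene (edgeR or DESeq2). The number called moved by over 1.5 times in 5 cases: in T288P against WT it was 2 without both outlying libraries, in T288P+GDF11 against T288P 2 without T288P replicate 1 or T288P+GDF11 replicate 1, in T288P+GDF11 against M452I 3 with only the 2 groups, and in M452I against T288P 3 without both outlying libraries. With single libraries left out the counts ran from 0 to 0 for M452I against WT, T288P against WT and M452I against T288P, from 2 to 4 for T288P+GDF11 against T288P, from 5 to 6 against WT and from 4 to 6 against M452I. The cause was not tested.

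Same-numbered wells of 2 groups showed little common deviation (correlations -0.197 to 0.174). By comparison, 0 to 2 of 4 wells correlated best with the well of their own number. The labels state no pairing, and 4 wells per group cannot exclude one. With the replicate number as a block, 0, 0, 4, 6, 4 and 0 of the 9 genes were called in M452I against WT, T288P against WT, T288P+GDF11 against T288P, WT and M452I, and M452I against T288P, and the call that changed was CTNNB1 against M452I (log2 -0.26, edgeR adjusted p = 0.0673).

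Over all genes, calls in M452I against WT were 4, and 30 by DESeq2, 0 with only the 2 groups and 640 without both outlying libraries. In T288P against WT they were 7, and 80 by DESeq2, 11 without the low-count filter, 1 with the block and 698 without both outlying libraries. Between the alleles there was 1, and 6 by DESeq2, 0 with only the 2 groups and 2420 without both outlying libraries. The 2174 calls of T288P+GDF11 against T288P were 1391 without the low-count filter, and the 3558 against M452I were 6941 without both outlying libraries and 2261 with only the 2 groups. With single libraries left out, these counts ran from 1 (without WT replicate 2) to 9 (without M452I replicate 4) for M452I against WT, from 1 (without WT replicate 1 or 2 or T288P replicate 2 or 4) to 16 (without T288P replicate 1) for T288P against WT, from 3675 to 4522 for T288P+GDF11 against WT, from 1028 (without T288P replicate 1) to 1912 for T288P+GDF11 against T288P and from 1661 (without M452I replicate 2) to 6578 (without M452I replicate 4) against M452I. All 40 group levels moved by less than 1 SD under RLE normalization. Depth limits CDH2, whose levels lie near those of single counts.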
